A study of Ammopiptanthus mongolicus with 6 samples.

Results

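The leaf transcriptome of Ammopiptanthus mongolicus after 72 h of drought was set against that of untreated plants, over all assembled transcripts (unigenes). The 2 libraries were taken by their labelled treatment and time, out of 6 in the series, and 63685 of the 67955 unigenes of the series had a read in at least one of them. Ammopiptanthus mongolicus is an evergreen broad-leaved desert shrub of the legume family. Both groups were wild type, with RNA from leaf labelled as mesophyll, the photosynthetic tissue between the leaf surfaces. The drought 72 h group is 1 library of plants under drought stress and the control group is 1 library of plants with no treatment. The series also holds drought libraries of 1 and 24 h and cold libraries of 1 and 72 h, 1 each, which are used below as further measurements of the same unigenes. The design text speaks of triplicates, while 1 library per treatment and time is analysed here. How drought was imposed, the age of the plants, whether plants were pooled and the time of day of sampling are not given by the labels used here.

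Leaves that lose water accumulate abscisic acid, a hormone that closes the stomata and switches on genes for protective proteins, compatible solutes and detoxification. Closed stomata restrict carbon uptake, and transcripts for photosynthesis and growth are often reduced as drought continues. The unigenes carry assembly identifiers without gene names, so which of them belong to these pathways, and whether mesophyll markers fit the tissue label, was not analysed here. The unigenes are therefore described by identifier, length, level and behaviour over the libraries, and no role is given to any of them.

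The drought 72 h library held 4639933 uniquely assigned reads and the control 4673249, so depth was nearly equal. At drought 72 h 59262 unigenes were listed, and 59618 in the control. Of these, 55195 were listed in both libraries, 4067 at drought 72 h and not in the control, and 4423 in the control and not at drought 72 h. The median unigene listed on a single side had 1 read. Levels are given as counts per 1000000 library reads (CPM), or per kilobase of unigene as well (RPKM, the authors' value), and levels of different unigenes are set side by side as RPKM. All levels, shares and comparisons use the counted totals. For cold 72 h that total was 4301593 reads, while TMM scaling (edgeR) gave an effective total of 3627094. For the control TMM scaling gave 4786416. Levels at cold 72 h would thus be higher against the control under TMM scaling. With 1 library a side there is no replicate error, no test across samples and no p-value. Intervals are exact 95% intervals for counting error alone, and PCR copies of a molecule can be counted as several reads, since no molecular identifiers are recorded. A unigene is called higher or lower when the whole interval of its ratio, drought 72 h over control, lies beyond 2-fold. In whole leaf tissue, fewer cells of a type and less of a transcript per cell cannot be told apart.

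At 72 h of drought 252 unigenes were higher than in the control and 301 were lower, which is 0.396% and 0.473% of the unigenes with a read. Among the 21390 unigenes with 40 or more reads, 175 were higher and 224 lower, which is 0.818% and 1.05%. The ratios were centred near no change, which scaling to library totals favours. Such a centre does not show how close single unigenes were to the control. The quartiles of the log2 ratio were -0.527 and 0.531 with 10 to 39 reads in the pair, and -0.237 and 0.256 with 100 to 399 reads. Across the 30222 unigenes with 20 or more reads in the pair the median log2 ratio was 0.01, and in every class of read number the median log2 ratio lay between 0.01 and 0.04. The interval lay wholly between 0.8 and its inverse for 1303 well-measured unigenes, which took 27.6% of the drought 72 h reads and 27.3% of the control reads.

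**Figure D1:**
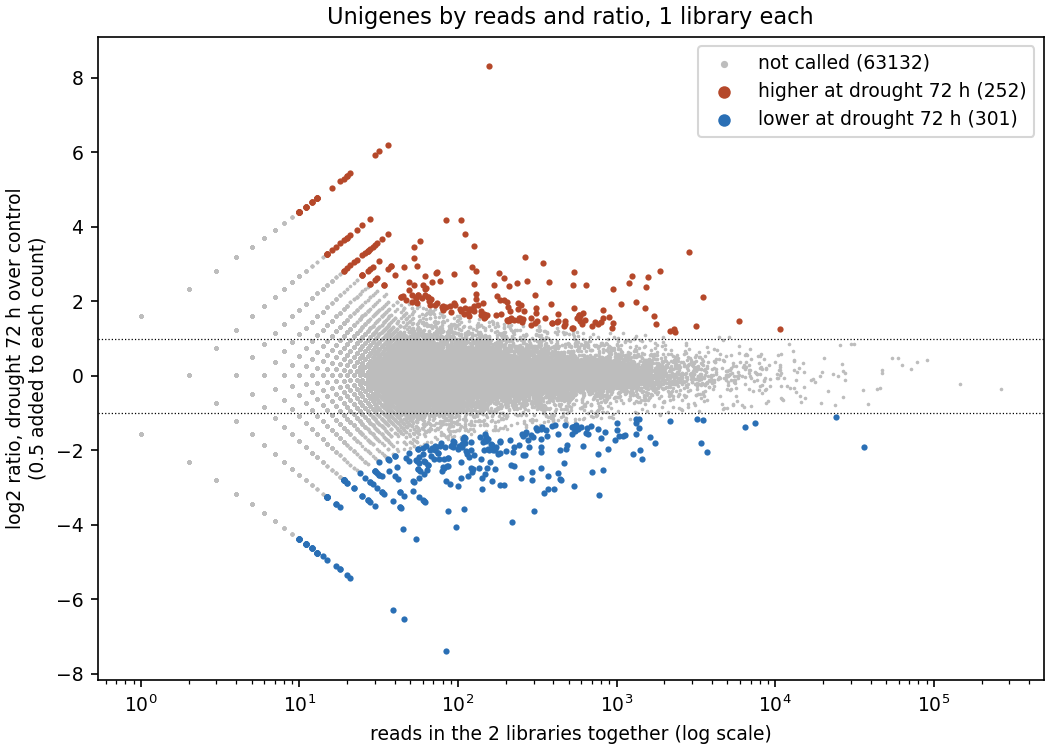
Each point is 1 unigene, with the reads of both libraries together on the x axis (log scale) and the log2 ratio of drought 72 h over control on the y axis, 0.5 added to each count; dotted lines mark 2-fold. The 252 higher and 301 lower unigenes surround a cloud centred near 0 that widens as reads become few.

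The called differences were mostly of moderate size. With counts under 3 set to 3, the median fold was 4.18 among higher unigenes (quartiles 3.21 and 6.36) and 4.59 among lower unigenes (3.52 and 6.30). At least 8-fold were 35 higher and 39 lower unigenes, and at least 16-fold were 3 and 3. The higher set had a median level of 29.0 RPKM at drought 72 h against 6.37 RPKM in the control. The lower set had a median of 5.37 RPKM at drought 72 h against 28.3 RPKM in the control. These levels chose the sets and only describe them. At 100 RPKM or more were 40 higher unigenes at drought 72 h against 7 of the same unigenes in the control. Of the lower unigenes 4 reached that level at drought 72 h, against 44 in the control.

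Among the higher unigenes Unigene9703_All (868 bases) combined a large ratio with many reads. It stood at 644 RPKM at drought 72 h (619.8 to 669.6) and 63.6 RPKM in the control (56.1 to 71.9), a ratio of 10.1 (8.91 to 11.6). Over drought its level was 237 RPKM at 1 h, 737 RPKM at 24 h and 644 RPKM at 72 h. Cold gave 316 and 643 RPKM at 1 and 72 h, so the control was the lowest of the 6 libraries.

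Unigene33283_All (620 bases) had 99 reads at drought 72 h and 5 in the control, a ratio of 19.9 (8.26 to 62.8). Its level was 30.0, 13.1 and 34.4 RPKM at 1, 24 and 72 h of drought, against 1.73 RPKM in the control. Cold gave 20.02 and 15.4 RPKM at 1 and 72 h, so all 5 stress libraries lay above the control.

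Unigene17222_All (324 bases) and Unigene17223_All (306 bases), which carry adjacent identifiers, kept nearly the same profile over the libraries. Unigene17222_All had 80 reads at drought 72 h and 4 in the control, a ratio of 20.1 (7.57 to 75.7). Unigene17223_All had 104 and 7 reads, a ratio of 15.0 (7.01 to 38.1). Unigene17222_All had 22 reads at 1 h and 31 at 24 h of drought, and 30 and 4 at 1 and 72 h of cold. Unigene17223_All had 30 and 34 reads at those times of drought, and 25 and 4 in cold. Both were thus highest at 72 h of drought and near the control at 72 h of cold. Whether they are pieces of 1 transcript was not tested.

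The largest gains in CPM were on abundant unigenes, Unigene9703_All among them, at ratios from 2.39 to 10.1. CL6044.Contig2_All (1800 bases) stood at 906.5 RPKM at drought 72 h (886.2 to 927.2) and 379 RPKM in the control (365.7 to 392.1), a ratio of 2.39 (2.30 to 2.50). This is a gain of 950.0 CPM, the largest among the called unigenes. Over drought it was 625 RPKM at 1 h, 1329 RPKM at 24 h and 906.5 RPKM at 72 h, and cold gave 691 and 321 RPKM at 1 and 72 h. Its highest library was thus drought at 24 h.

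CL6565.Contig2_All (2434 bases) stood at 385 RPKM at drought 72 h and 138 RPKM in the control, a ratio of 2.79 (2.63 to 2.96). Its drought levels were 260, 308 and 385 RPKM at 1, 24 and 72 h. Cold gave 169.6 RPKM at 1 h and 121 RPKM at 72 h, so it was highest in the latest drought library.

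Unigene1350_All (911 bases) stood at 672 RPKM at drought 72 h and 156 RPKM in the control, a ratio of 4.30 (3.95 to 4.69). Drought gave 325, 858 and 672 RPKM at 1, 24 and 72 h, and cold 359 and 135 RPKM at 1 and 72 h. Like CL6044.Contig2_All it was highest at 24 h of drought and close to the control at 72 h of cold.

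CL5360.Contig1_All (435 bases) stood at 816 RPKM at drought 72 h (776.6 to 855.9) and 117 RPKM in the control (102 to 132), a ratio of 6.995 (6.10 to 8.05). Its drought levels were 614 RPKM at 1 h, 228 RPKM at 24 h and 816 RPKM at 72 h. The 24 h library was therefore the lowest of the drought libraries. Cold gave 189 and 393 RPKM at 1 and 72 h.

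Of the higher unigenes 31 had no read in the control. CL6604.Contig2_All (2548 bases) led them with 158 reads at drought 72 h, 53.0-fold higher against a floor of 3 control counts. The floor takes the 158 reads as observed, and the exact interval began at 42.6. The summed reads of its cluster of contigs differed far less. Next were Unigene8039_All (855 bases) with 36 reads, Unigene1761_All (829 bases) with 32 and Unigene24206_All (1024 bases) with 30. Against the floor they were 12.1-fold, 10.7-fold and 10.1-fold higher. Their intervals began at 9.33, 8.24 and 7.70.

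Unigene8039_All, Unigene1761_All and Unigene24206_All shared an on and off profile. They had 10, 12 and 18 reads at 1 h of drought and none at 24 h. In cold Unigene8039_All had 2 reads at 1 h and 0 at 72 h, and Unigene1761_All and Unigene24206_All had none at either time. At 72 h of drought their reads covered 68.8%, 71.7% and 70.0% of their length. They were thus listed in the drought libraries of 1 h and 72 h but not in that of 24 h, which with 1 library a time cannot be told apart from a difference between the plants sampled.

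The other unigenes without a control read were mostly listed elsewhere. Of the 31, 15 were listed in all 5 stress libraries, 8 had no read at 1 h of drought, 7 none at 24 h of drought, 3 none at 1 h of cold and 12 none at 72 h of cold. Only Unigene5572_All (875 bases), named after its values were seen, was listed at drought 72 h alone, with 19 reads. Apart from the 4 leading unigenes the 31 had 10 to 21 reads, close to the 10 reads needed for a call against 0.

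**Figure D2:**
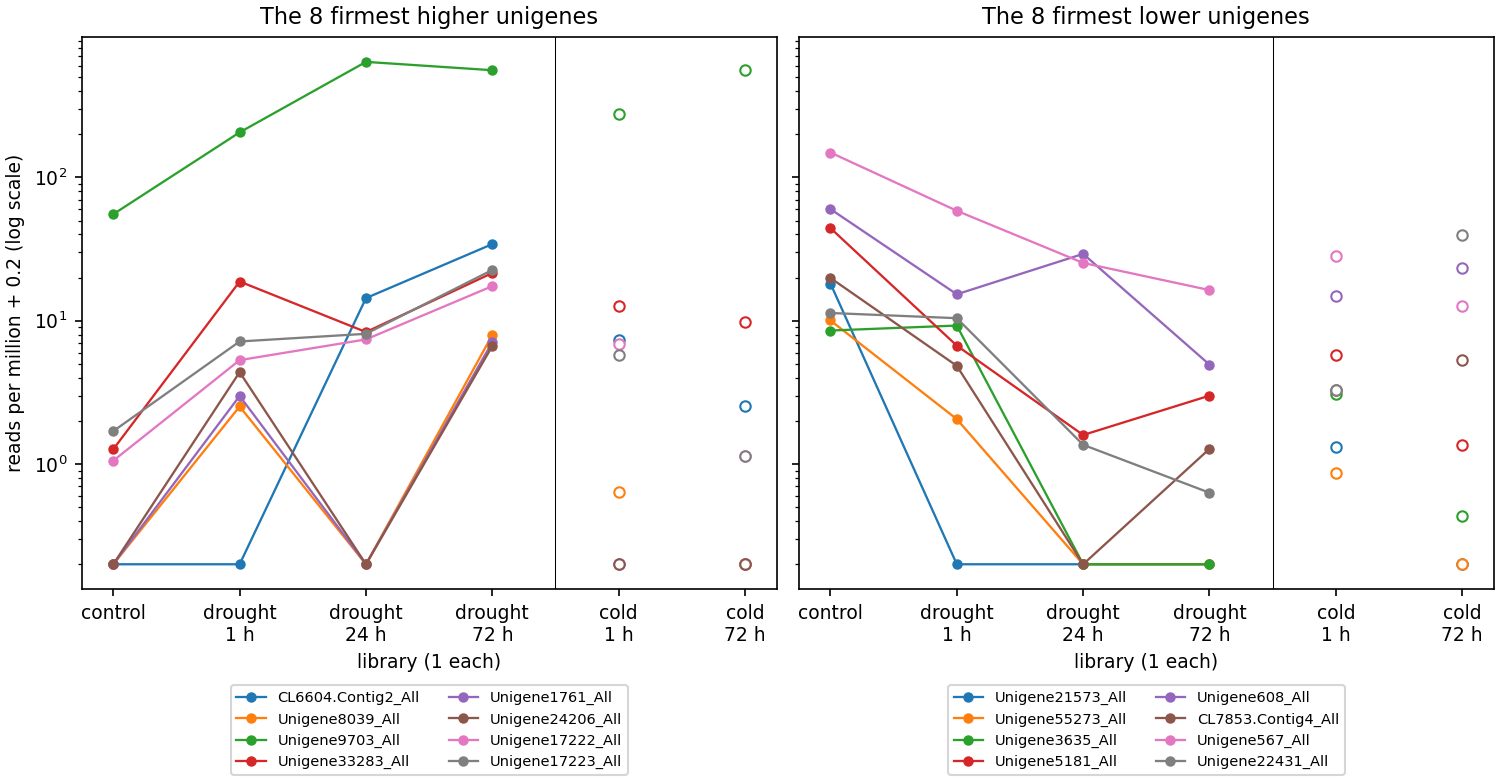
CPM plus 0.2 (log scale) in each of the 6 libraries, for the 8 called unigenes with the firmest interval bound in each direction; lines join the control and the drought times, open points are cold, and points at 0.2 had no read. Unigene9703_All lies far above the other higher unigenes, and Unigene8039_All, Unigene1761_All and Unigene24206_All return to 0 reads at 24 h of drought.

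Among the lower unigenes 30 had no read at drought 72 h. Unigene21573_All (285 bases) had 0 reads at drought 72 h against 84 in the control. It was 27.8-fold lower at drought 72 h against a floor of 3 counts, with an interval that began at 22.1-fold. Its reads were 0 at every drought time, 5 at 1 h of cold and 0 at 72 h of cold. It was therefore rare or unlisted in all 5 stress libraries.

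Unigene55273_All (741 bases) had 46 control reads and was 15.2-fold lower at drought 72 h against the floor (interval from 11.9). At 1 h of drought 8 reads were left, and none at 24 h. Unigene3635_All (580 bases) had 0 reads at drought 72 h and 39 in the control, 12.9-fold lower against the floor (interval from 10.01). It still had 39 reads at 1 h of drought, and none at 24 h. Its cold reads were 13 at 1 h and 1 at 72 h, so the 1 h drought library held as many reads as the control.

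CL2475.Contig1_All (1442 bases) was the fourth, with 0 reads at drought 72 h and 21 in the control, 6.95-fold lower against the floor (interval from 5.17). Its 21 control reads covered 6.45% of its length, so its value rests on a short stretch. It had 8 and 16 reads at 1 and 24 h of drought, and 9 and 0 reads at 1 and 72 h of cold. Of the 30 unigenes without a read at drought 72 h, 18 were listed in all 5 other libraries.

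Other unigenes lay well below the control while keeping reads. Unigene5181_All (310 bases) stood at 9.04 RPKM at drought 72 h (4.81 to 15.5) and 142 RPKM in the control (123 to 163), 15.7-fold lower (8.999 to 30.05). Unigene608_All (232 bases) stood at 20.4 RPKM at drought 72 h (12.8 to 30.9) and 258 RPKM in the control (229 to 290.3), 12.6-fold lower (8.18 to 20.5). Its drought levels were 65.1, 125.3 and 20.4 RPKM at 1, 24 and 72 h, and its cold levels 63.1 and 100.2 RPKM, so drought 72 h was the lowest of the 6 libraries.

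Unigene567_All (609 bases) was lower at each later drought time by point value. It stood at 26.5 RPKM at drought 72 h (20.9 to 33.3) and 245 RPKM in the control (226.7 to 263.4), 9.21-fold lower (7.25 to 11.9). Its drought levels were 95.7, 41.2 and 26.5 RPKM at 1, 24 and 72 h. Cold gave 45.9 and 20.6 RPKM at 1 and 72 h, below the control as well.

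Unigene22431_All (412 bases) had 2 reads at drought 72 h and 52 in the control, 25.8-fold lower (6.80 to 218.8). At 1 h of drought 44 reads were counted and at 24 h 5. The cold libraries held 14 reads at 1 h and 169 at 72 h, which is 95.4 RPKM against 27.0 RPKM in the control. The latest drought and the latest cold library thus lay on opposite sides of the control.

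The loss of reads at drought 72 h was concentrated on few abundant unigenes. The 5 with the largest loss took 0.429% of the drought 72 h reads against 1.247% of the control reads. They held 49.3% of all control reads on the lower set. The 5 higher unigenes with the largest gain took 0.410% of drought 72 h reads against 0.127% of control reads. The 5 higher unigenes with the most reads held 29.0% of the drought 72 h reads on the higher set. With a coefficient of variation of 0.2 assumed between plants, the calls on CL6044.Contig2_All, CL6565.Contig2_All, CL1268.Contig2_All, CL4639.Contig1_All and Unigene6662_All were lost.

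CL1491.Contig1_All (2540 bases) lost the most. It stood at 645.5 RPKM at drought 72 h (631.1 to 660.2) and 2423 RPKM in the control (2395 to 2451), 3.75-fold lower (3.66 to 3.85). Its level was 1640 CPM at drought 72 h against 6155 CPM in the control. Over drought it was 723 RPKM at 1 h, 170.0 RPKM at 24 h and 645.5 RPKM at 72 h, so it was lowest at 24 h. Cold gave 798 and 181 RPKM at 1 and 72 h. Between 53.1% and 53.8% of its length was under reads in each library, and the RPKM counts the bare bases too.

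CL1268.Contig2_All (1537 bases) stood at 1066 RPKM at drought 72 h and 2308 RPKM in the control, 2.17-fold lower (2.11 to 2.23). It too was lowest at 24 h of drought, at 636 RPKM, with 1119 RPKM at 1 h. The summed reads of its 4 contigs gave a cluster 2.04-fold lower with an interval that included 2-fold, so the call did not hold for the sum.

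CL4639.Contig1_All (4716 bases) stood at 99.7 RPKM at drought 72 h (95.6 to 104) and 240.0 RPKM in the control (233.6 to 246.5), 2.41-fold lower (2.29 to 2.53). Drought gave 308, 122 and 99.7 RPKM at 1, 24 and 72 h. Cold gave 125.3 RPKM at 1 h and 1272 RPKM at 72 h, where 3% of all unigenes were higher than in the control by the same rule. It was thus the lowest in late drought and the highest in late cold.

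Unigene6662_All (2069 bases) stood at 185 RPKM at drought 72 h and 482 RPKM in the control, 2.60-fold lower (2.46 to 2.75). Drought gave 411, 250.3 and 185 RPKM at 1, 24 and 72 h, lower at each later time, and cold gave 246 and 926 RPKM at 1 and 72 h. CL1088.Contig1_All (2008 bases) stood at 77.0 RPKM at drought 72 h and 318 RPKM in the control, 4.13-fold lower (3.80 to 4.49). Drought gave 200.1, 73.1 and 77.0 RPKM, and cold 151 and 102 RPKM, so every stress library lay below the control.

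The other libraries were not used to choose the sets and show where the members stood over the series. The 252 higher unigenes together took 1.46% of reads at drought 72 h (1.45 to 1.47%) and 0.435% in the control (0.429 to 0.441%). The drought libraries gave shares of 1.00%, 1.70% and 1.46% at 1, 24 and 72 h. In cold it was 0.937% at 1 h and 1.13% at 72 h, so in all 5 stress libraries it exceeded that of the control. The drought 72 h and control reads chose the members, so their shares are a description and the control share was set low by the choice.

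The 301 lower unigenes took 0.801% of reads at drought 72 h (0.793 to 0.809%) and 2.53% in the control (2.51 to 2.54%). The drought libraries gave shares of 1.70%, 0.709% and 0.801% at 1, 24 and 72 h. In cold it was 1.20% at 1 h and 2.87% at 72 h. Without the 5 with the largest loss the shares were 0.372% at drought 72 h, 1.28% in the control and 1.92% at cold 72 h. The share of the lower set was thus below its control share at 24 h of drought and above it in late cold. Its low share at drought 72 h and high share in the control were set by the choice of members. The 5 with the largest loss took 0.958% of reads at cold 72 h against 1.247% in the control, so the higher share of late cold lay on the other members. The median level of the 301 members was lower in late cold, at 13.9 RPKM, than in the control, at 28.3 RPKM. The higher share thus does not describe the median member.

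**Figure D3:**
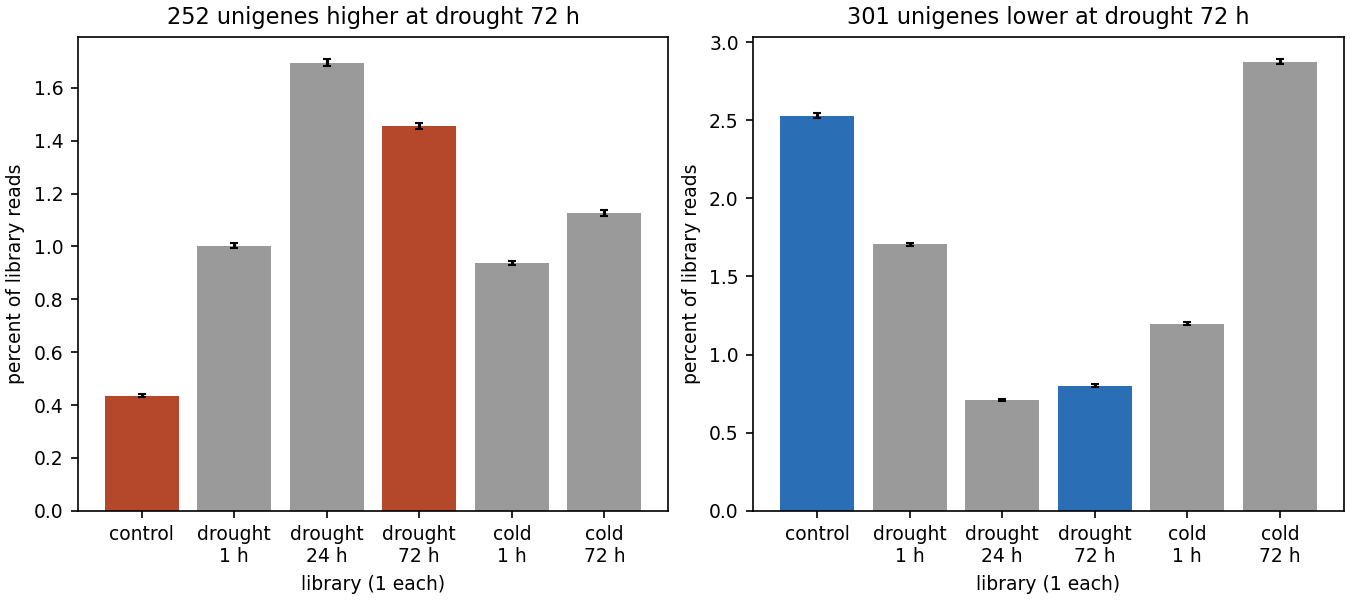
Percent of each library's reads on the unigenes called higher (left) and lower (right) at drought 72 h, 1 library per bar, with exact 95% binomial intervals for counting error; coloured bars are the 2 libraries that chose the sets. The higher set reaches 1.70% at drought 24 h, and the lower set takes 2.87% at cold 72 h, above its control share of 2.53%.

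Set directly against the other drought libraries, most members were not separated from them. Of the 252 higher unigenes, 39 were also higher at drought 72 h than at 1 h and 0 were lower, where 0.151% and 0.549% of all unigenes with a read were higher and lower. Against 24 h, 25 were higher at 72 h and 9 lower, with backgrounds of 0.163% and 0.175%. Of the 301 lower unigenes, 132 were lower at 72 h than at 1 h and 0 higher. Against 24 h, 16 were lower at 72 h and 3 higher. The drought 72 h reads stand in both ratios, so these counts only describe the members. By point value 143 of the higher unigenes had their highest drought level at 72 h, 95 at 24 h and 14 at 1 h. Of the lower unigenes 196 had their lowest drought level at 72 h, 99 at 24 h and 6 at 1 h. The 72 h reads chose the members, which favours 72 h as the extreme, so these counts say nothing about timing.

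Set against cold at 72 h, 107 of the 252 higher unigenes were higher in drought and 15 lower, with backgrounds of 3.06% and 3.24%. Of the 301 lower unigenes, 104 were lower in drought than in cold at 72 h and 5 higher. Against cold at 1 h, where 0.138% and 0.196% of unigenes were higher and lower in drought, 40 of the higher set were higher in drought and 1 lower. Of the lower set 43 were lower in drought and 1 higher. Here too the drought 72 h reads chose the members and stand in each ratio, so these counts only describe the members.

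How often a unigene was called depended on its reads. None of the 23535 unigenes with 1 to 9 reads in the pair was called, since against 0 at least 10 reads were needed. With 10 to 39 reads 0.821% were called, with 100 to 399 reads 2.00% and with 1000 to 3999 reads 2.92%. Of the 207 unigenes with 4000 reads or more, 2 were higher and 4 lower, which is 2.90%. In each class above 39 reads the lower unigenes outnumbered the higher ones, for instance by 76 to 49 with 40 to 99 reads. Of those with 1000 reads or more 18 were higher, by 2.25-fold to 10.1-fold, and 24 were lower, by 2.17-fold to 4.74-fold. Of these, 7 higher and 3 lower ones were at least 4-fold away from the control.

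**Figure D4:**
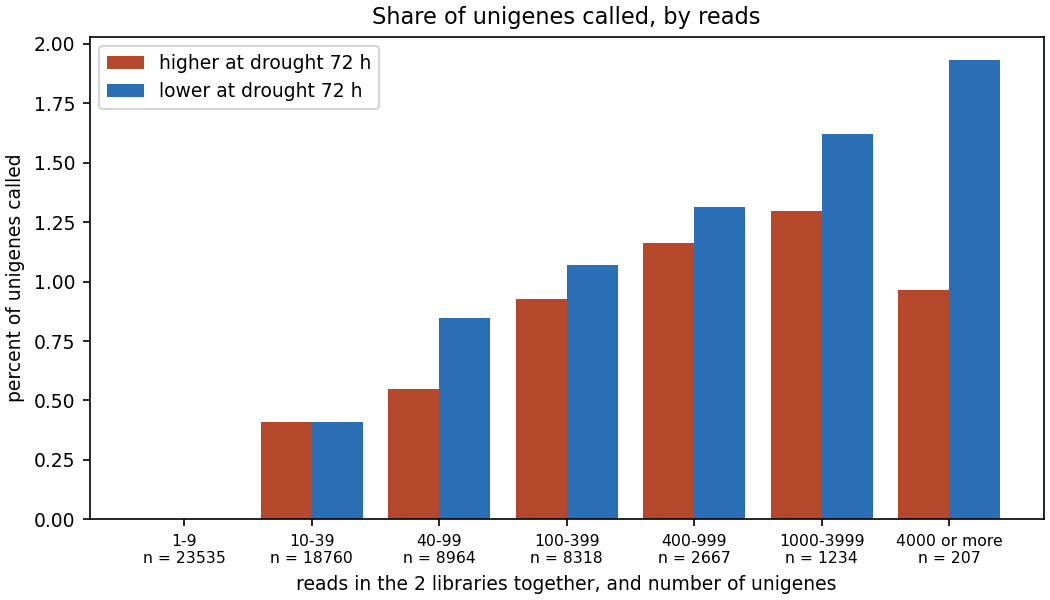
Percent of unigenes called higher and lower at drought 72 h (y axis), by the reads of both libraries together (x axis, with the number of unigenes per class). No unigene under 10 reads was called, and the total called reaches 2.92% at 1000 to 3999 reads.

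Length was not used in the calls. Among unigenes with at least 40 reads, where 0.818% were higher and 1.05% lower over all lengths, 26 of 1150 unigenes of 200 to 299 bases were lower and 7 higher. At 300 to 499 bases 44 of 3806 were lower and 48 higher. At 2000 to 3999 bases 20 of 1824 were lower and 6 higher. Lower unigenes outnumbered higher ones in each length class except 300 to 499 bases. The median length at 40 reads or more was 719 bases in the higher set and 819.5 in the lower set, against 833 over all such unigenes. Reads covered a median of 91.6% and 92.6% of the length of these higher and lower unigenes, in whichever library was better covered, against 88.7% over all. Under 50% coverage were 12.6% of the higher and 6.25% of the lower unigenes, against 10.9% over all.

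Contigs of a cluster share sequence and compete for uniquely assigned reads, so each call on a contig was set beside the sum of its cluster. Of the 553 called unigenes 171 were contigs, 70 higher and 101 lower, in 155 clusters. Contigs were 27.8% of the higher and 33.6% of the lower set, against 28.5% of all unigenes with a read. For 107 of the 171 the summed cluster was called the same way, for 64 it was not called, and for 0 it was called the other way. Summing gave 43 clusters higher and 59 lower out of 8814, which is 0.488% and 0.669%. Only 7 summed clusters were called without a called contig. For these 64 contigs, therefore, the whole cluster did not pass the rule.

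CL6604 shows this most plainly. Contig2 had 158 reads at drought 72 h and 0 in the control, whereas Contig3 (1591 bases) had 264 and 279 reads and Contig1 (428 bases) had 3 and 4. The cluster as a whole was 1.51-fold higher (1.30 to 1.76). Contig2 held 37.2% of the cluster's reads at drought 72 h and none in the control. Its reads were 0 at 1 h of drought, 61 at 24 h, 32 at 1 h of cold and 10 at 72 h of cold, while Contig3 kept 275 and 383 reads at those drought times and 277 and 153 in cold.

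CL3524 was the only cluster with calls in both directions. Contig1 (319 bases) had 10 reads at drought 72 h and 0 in the control, at least 3.36-fold higher against the floor (interval from 2.26). Contig3 (286 bases) had 5 and 55 reads, 10.9-fold lower (4.41 to 35.0). Contig2 (1798 bases), which held 92.1% of the cluster's reads at drought 72 h and 87.9% in the control, had 176 and 400 reads, 2.26-fold lower (1.89 to 2.71), and was not called. The cluster was 2.37-fold lower with an interval that reached past 2-fold. The higher contig thus goes against the direction of its cluster on 10 reads.

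In CL7853 contigs also differed. Contig4 (718 bases) had 5 reads at drought 72 h and 92 in the control, 18.3-fold lower (7.55 to 57.6), and Contig3 (1624 bases) had 41 and 142 reads, 3.44-fold lower. Contig1 (791 bases) had 42 reads in each library. The cluster was 3.09-fold lower and was called. In CL2475 the loss of Contig1, 0 reads against 21, stood beside 38 and 26 reads of Contig2 (1424 bases), and the cluster had 38 reads at drought 72 h against 47 in the control.

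**Figure D5:**
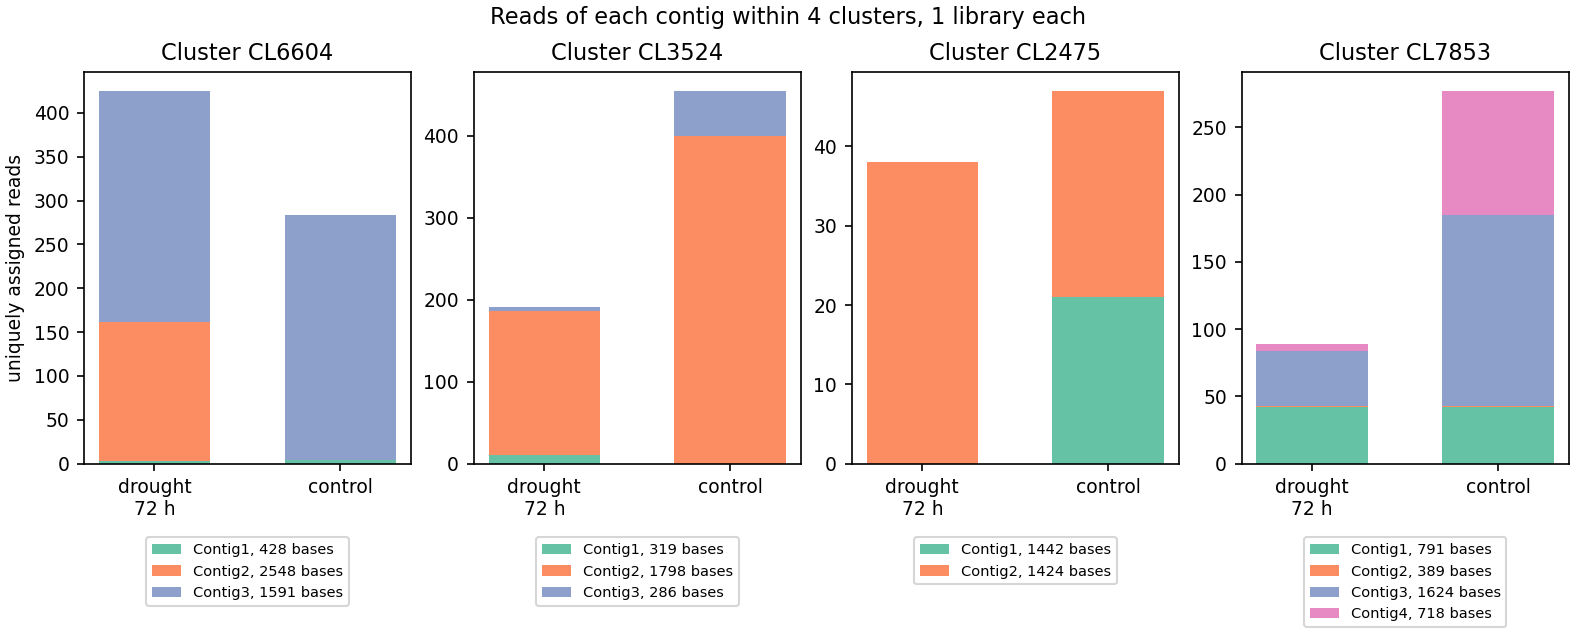
Uniquely assigned reads of each contig at drought 72 h and in the control (1 library each), stacked, in 4 clusters that hold named contigs. In CL6604 the 158 reads of Contig2 at drought 72 h stand on a nearly equal Contig3, and in CL7853 Contig1 has 42 reads in both libraries while Contig3 and Contig4 are lower at drought 72 h.

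The most abundant unigenes per length were not called. Unigene4153_All (711 bases) had the highest level at drought 72 h, 9661 RPKM, against 6878 RPKM in the control, a ratio of 1.40 (1.38 to 1.43). Unigene29515_All (507 bases) stood at 6591 RPKM at drought 72 h and 8567 RPKM in the control, 1.30-fold lower (1.27 to 1.33). Unigene14872_All (629 bases) stood at 6567 and 8320 RPKM, 1.27-fold lower, and Unigene600_All (745 bases) at 5824 and 7284 RPKM, 1.251-fold lower. The order at the top thus differed, with Unigene4153_All the highest of the 4 at drought 72 h and the lowest in the control. Of the 100 unigenes with the most reads in the pair 1 was called higher and 2 lower, although the intervals of 46 lay above 1 and those of 45 below 1. Together these 100 took 24.1% of drought 72 h reads and 24.7% of control reads.

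Among abundant unigenes with a ratio close to 1, Unigene14863_All (1192 bases) stood at 4388 RPKM at drought 72 h and 4141 RPKM in the control, a ratio of 1.06 (1.04 to 1.08). By the counted totals it lay between 4141 and 4390 RPKM in all libraries but cold 72 h, where it was 3264 RPKM. The cold 72 h level depends on the scaling and would be higher under TMM scaling. CL3476.Contig3_All (2896 bases) had a ratio of 1.13 (1.11 to 1.15) and CL3755.Contig1_All (1428 bases) a ratio of 1.23 (1.21 to 1.248). Unigene8105_All (6720 bases) stood at 2158 RPKM at drought 72 h and 2501 RPKM in the control, a ratio of 0.863 (0.854 to 0.872). All 4 intervals exclude 1, since counting error is small at such read numbers, and the spread between plants was not measured.

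At the edge of the 2-fold rule, among unigenes with at least 100 reads, CL5877.Contig2_All (1596 bases) was just called higher, with a ratio of 2.60 and an interval from 2.00, and its summed cluster was not called (1.93-fold). Unigene45563_All (806 bases) was just not called, with a ratio of 3.06 and an interval from 1.99. Unigene16758_All (397 bases) was just called lower, 2.49-fold with an interval from 2.00, and Unigene17173_All (867 bases) was just not called, 2.43-fold with an interval from 1.996. Each pair had nearly the same bound on either side of the rule, so a call near it says little about a difference between the unigenes.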

How the data were processed

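For each unigene and library the authors deposited a read count (unique assignments), the length, the percent of that length under reads and an RPKM value, per the file headers. Per the submitters' processing notes Bowtie 0.12.2 was used. The assembler, any filter and the use of strand are not named in the sources used here. TruSeq libraries were made from Trizol-extracted leaf RNA, per the labels' protocols. Tables list unigenes with at least 1 read, and a missing unigene was taken as 0 reads. The counts of each library sum to the total in its header.

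Ratios of counts over these totals were given exact 95% intervals (Clopper-Pearson, given the total of the pair, with scipy 1.17.1), and shares exact binomial intervals. Levels have exact Poisson intervals. A unigene with 0 reads is set against a floor of 3 counts, which is 0.647 CPM at drought 72 h and 0.642 CPM in the control. The computation was tested on simulated data. The unigenes named are those of each direction with the firmest bounds (8), the largest change in CPM (5) and the most reads against 0 (4), besides contigs of clusters with opposite calls, 4 steady and 4 abundant unigenes and those at the edge of the rule. The members and lists were chosen with earlier results of these data known. The clusters drawn, and Unigene5572_All, were chosen after their values were seen.

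Alternatives used effective totals from edgeR 4.0.16 and DESeq2 1.42.0 (R 4.3.3), computed over the 6 libraries. Tables were handled in Python 3.11.15 with pandas 2.3.3 and numpy 2.4.6, and figures drawn with matplotlib 3.10.9.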

Additional observations from a re-analysis of the deposited data

Results flagged for a closer look

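CL4639.Contig1_All and Unigene22431_All lay on opposite sides of the control in the latest drought and the latest cold library. CL4639.Contig1_All was 2.41-fold lower than the control at drought 72 h, while its ratio over the control was 5.30 at cold 72 h. Unigene22431_All, with 2 reads at drought 72 h, was 25.8-fold lower there (6.80 to 218.8), while its ratio over the control was 3.53 at cold 72 h. Each stress is 1 library and both are set against the same control, so the difference was not tested.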

How the results depend on the processing

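The counts of 252 higher and 301 lower unigenes stayed within 1.5 times under TMM, upper-quartile and median-of-ratios scaling, totals without the 100 most abundant unigenes, minima of 10 and 40 reads, and summed clusters (175 to 253 higher and 224 to 305 lower). They became 92 and 131 with an interval at an error rate of 0.1%, 35 and 45 beyond 4-fold, and 148 and 176 for unigenes of at least 500 bases. Adding a coefficient of variation of 0.2 for plants left 120 and 166, and 0.4 left 52 and 64. Where the interval had to lie beyond 1 and the ratio beyond 2 they became 1626 and 1693, and with the ratio of deposited RPKM plus 1 they became 1985 and 2196. Lower unigenes outnumbered higher ones under each of these settings. The cluster with calls in opposite directions, 1 as reported, became 10 with the interval beyond 1, and 0 with at least 40 reads, at the error rate of 0.1%, beyond 4-fold, with a coefficient of variation of 0.4 and at 500 bases or more. CL3524.Contig1_All reversed when its cluster was summed, to a ratio of 0.423, because the other contigs hold nearly all of the reads. Of the 30 named unigenes that were called, 7 lost the call at a coefficient of variation of 0.2, among them CL5877.Contig2_All and Unigene16758_All at the edge of the rule, and 11 lost it at 0.4, where Unigene1350_All, CL1491.Contig1_All, CL1088.Contig1_All and CL3524.Contig1_All were added. At most 3 lost it under the other scalings, the error rate of 0.1% and the deposited RPKM. Summed clusters apply only to the named contigs. There 5 lost the call, and besides these CL3524.Contig1_All reversed and was not called. The read, length and 4-fold settings were applied to the counts and not to the named unigenes. The scalings were applied to drought 72 h over control, and not to levels, shares or comparisons that involve the other libraries. No paired analysis was possible because each group has 1 library, and for the same reason no replicate could be left out.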
